A study of Mus musculus with 25 samples.

Results

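The cytosolic ribosomal protein genes were examined in gastrocnemius muscle of male SAMP8 mice, an inbred strain with accelerated senescence. Genes were taken by symbol, as Rpl or Rps followed by a number, with or without a letter and a further number after it. Rplp0, Rplp1, Rplp2 and Rpsa were added, while the S6 kinases and some further symbols, not reported here, were left out. In the table of 8829 genes, 43 were found. By symbol alone, 25 were assigned to the large subunit (Rpl) and 18 to the small subunit (Rps). GENCODE M21 holds 81 protein-coding genes under the same rule, and the other 38 were not analysed here. The mice were 8 months old at the start and received either vehicle (corn oil, Control, n = 11 mice) or thymol, a plant terpenoid given by gavage at 20 mg/kg on 5 days a week (Thymol, n = 14 mice), over 3 months. Each mouse gave one QuantSeq 3′ mRNA library, in which reads come from the 3′ end of polyadenylated transcripts. Bulk tissue was used, so a change in the number of cells of a type and a change in RNA per cell cannot be told apart.

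Ribosomal proteins, with the ribosomal RNAs, form the large (60S) and small (40S) subunits of the ribosome, which translates messenger RNA into protein. A few of them have dedicated places: the P proteins (Rplp0, Rplp1 and Rplp2) form the stalk that recruits elongation factors, and others line the exit tunnel or the messenger RNA channel. Their messenger RNAs typically begin with a cytosine followed by a run of pyrimidines, the 5′ terminal oligopyrimidine (TOP) tract, through which mTORC1 controls their translation. In skeletal muscle, the synthesis of ribosomes is tied to growth and to muscle mass.

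The libraries held from 4463818 to 9463418 reads on the genes of the table, with a median of 7503259, and reads for 100% of the values were recovered as whole numbers within a tolerance of 1e-06. Markers of fast muscle fibres were all in the table (15 of 15), and their summed level was 17.2 to 17.7 log2 CPM (CPM being reads scaled to a common library size). Control 18 stood at the edge of the range more often than most mice, with the highest level of 8 and the lowest level of 4 of the 43 genes. Control 19 had the highest level of 8 genes and the lowest of 1, and Control 1 had the lowest level of 8 and the highest of 0.

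The sequences at the annotated starts were scored for the tract for which the family is known. A start was scored as TOP-like where a C at the start base was followed by at least 4 pyrimidines (C or T). RefSeq starts (GRCm38.p6) were matched for 35 of the 43 genes, and 7 of them (20.0%) had such a run at a start, against 3.06% of the genes of the table. When the run could begin anywhere within 10 bases of the start, 22 of 35 genes (62.9%) held one, against 37.4% of the genes of the table. Both scores depend on the annotated start base, so a gene without a run is not shown to lack the tract. In Rpl13a, for example, a run of 14 bases began 2 bases after the annotated start. The following windows cover 15 bases before the start base and the 15 bases from it onwards, 5′ to 3′ on the strand of the gene, with the pyrimidine run in capitals. The 7 genes with a run at the start base are shown first because they carry the motif as it is usually described.

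Rps21 (chr2:180257364-180257393, + strand): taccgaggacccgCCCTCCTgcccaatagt
Rps15a (chr7:118116133-118116162, - strand): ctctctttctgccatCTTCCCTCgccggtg
Rplp2 (chr7:141447636-141447665, + strand): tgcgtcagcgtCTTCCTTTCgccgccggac
Rpl14 (chr9:120571502-120571531, + strand): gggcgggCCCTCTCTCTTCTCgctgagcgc
Rpl38 (chr11:114668565-114668594, + strand): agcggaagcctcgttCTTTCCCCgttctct
Rpl15 (chr14:18270972-18271001, - strand): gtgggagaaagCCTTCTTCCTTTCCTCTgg
Rps10 (chr17:27635230-27635259, - strand): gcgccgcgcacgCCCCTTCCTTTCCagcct

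The next windows belong to genes that the results below turn on: the highest gene (Rpl4), the gene with the widest spread between mice (Rpsa), and the 3 genes with an unadjusted p under 0.05 for thymol (Rpl27a, Rpl23 and Rps25). Rpl27a has a run that begins 4 bases before the start, and the others have no run of this length that begins within 10 bases of it.

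Rpl4 (chr9:64173372-64173401, + strand): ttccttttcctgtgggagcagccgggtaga
Rpsa (chr9:120127751-120127780, + strand): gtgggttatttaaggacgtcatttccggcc
Rpl27a (chr7:109519180-109519209, + strand): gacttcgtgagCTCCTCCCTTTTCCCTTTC
Rpl23 (chr11:97782425-97782454, - strand): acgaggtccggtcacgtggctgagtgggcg
Rps25 (chr9:44407699-44407728, + strand): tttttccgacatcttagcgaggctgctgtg

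Most of the genes were well expressed, but over a wide range. Mean levels over the 25 mice ran from 2.24 log2 CPM (Rpl19) to 9.24 log2 CPM (Rpl4), a 128-fold range, with a median of 5.69 against 4.09 over all genes, and 31 of the 43 lay above the median gene. The median level was 6.55 log2 CPM in the small subunit and 4.80 in the large. QuantSeq takes about one read per transcript whatever its length, so levels were compared between genes without dividing by length. Together the 43 genes took 0.416% to 0.579% of the reads of a mouse on the genes of the table. The 5 highest took 43.3% of that share.

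**Figure D1:**
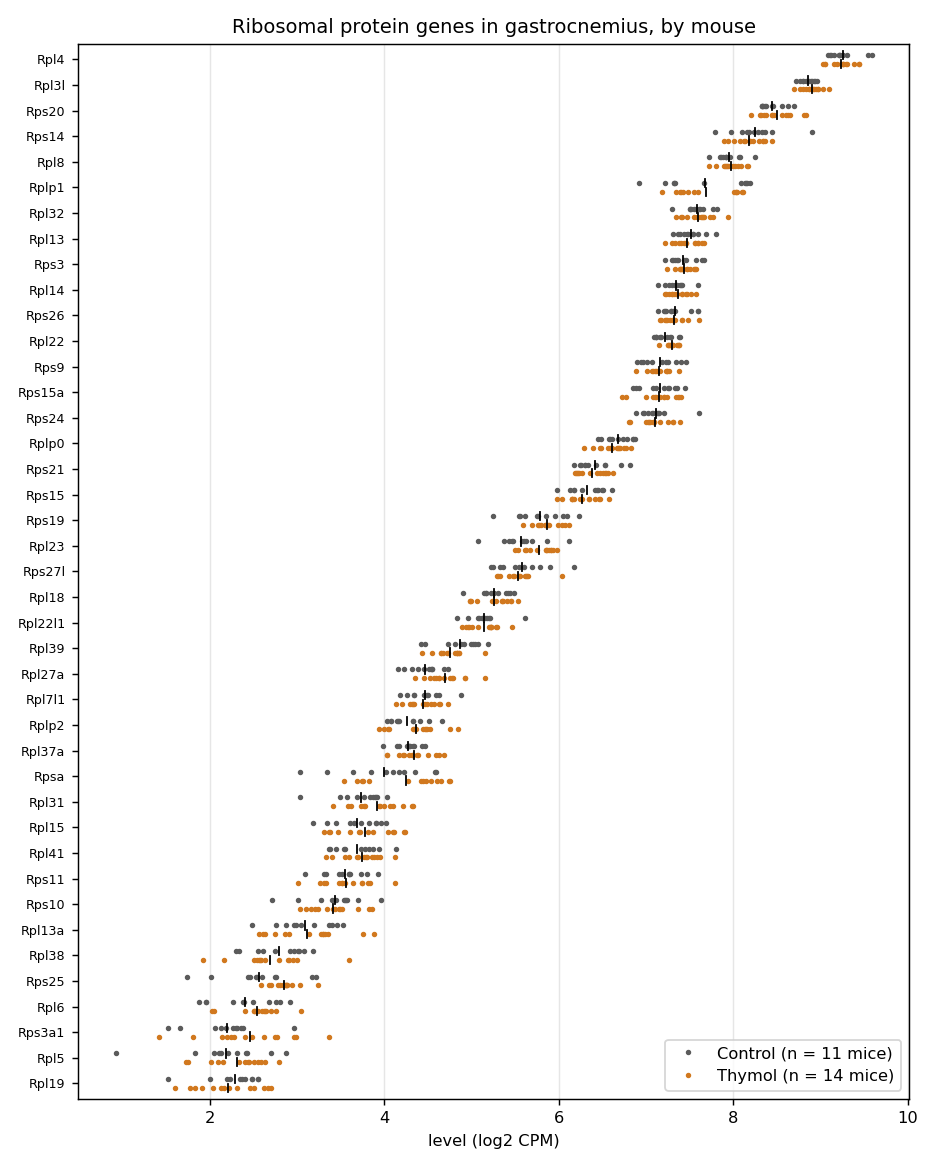
Level of 41 of the ribosomal protein genes in each mouse, in log2 CPM, ordered by mean. Points are mice (11 Control in grey, 14 Thymol in orange) and black ticks are group means. The levels run from Rpl4 at 9.24 to Rpl19 at 2.24, and the points of Rplp1 leave a gap between 7.66 and 8.00 in both groups.

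At the top of the order were Rpl4, a large-subunit protein that lines the exit tunnel, and Rpl3l, the paralogue of Rpl3 found in striated muscle. Rpl4 ranged over 9.09, 9.21 and 9.58 log2 CPM (lowest, median and highest) in the control mice and over 9.03, 9.25 and 9.44 in the thymol mice. For Rpl3l the values were 8.72, 8.87 and 8.96 in control and 8.69, 8.91 and 9.10 in thymol. Small-subunit genes near the top included Rps20 at a mean of 8.47 and Rps14 at 8.21 log2 CPM. Rps14, whose loss of one copy underlies a human anaemia, reached from 7.79 to 8.90 in control and from 7.89 to 8.45 in thymol. At the bottom were Rps25 (2.73), Rpl6 (2.48), Rps3a1 (2.34), Rpl5 (2.26), which binds 5S ribosomal RNA, and Rpl19 (2.24). These 5 rested on a median of 34 to 50 reads per mouse, against 4512 reads for Rpl4. In the order of levels, the ranges of all 42 neighbouring pairs overlapped.

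The stalk genes, whose proteins act as one complex, stood far apart. Rplp1 had 6.92, 7.66 and 8.19 log2 CPM (lowest, median and highest) in control and 7.19, 7.57 and 8.12 in thymol. Rplp0, which anchors the stalk, had 6.45, 6.67 and 6.88 in control and 6.29, 6.64 and 6.83 in thymol. Rplp2 was the lowest in every mouse, with 4.03, 4.17 and 4.67 in control and 3.94, 4.40 and 4.84 in thymol. The ranges of the 3 genes did not overlap. One measure that varied across the family was the amount of sequence shared with copies elsewhere in the genome. Of the 50-base words in the last 300 bases of one transcript per gene, a median of 21.1% were also found in transcripts of other genes for the 43 genes analysed, of which 17 shared none and 14 shared over 50%. For the 38 genes not analysed here the median was 77.3%, with 7 that shared none and 27 over 50%. The contrast depends on the transcript chosen, since with the most-shared transcript of each gene the medians were 62.9% (7 shared none) and 86.3% (3 shared none). Across the 43 genes the level was hardly related to this share (Spearman rho -0.10), and the relation was -0.47 when the transcript of each gene with the most shared words was taken. These are descriptions across genes, which are not independent replicates. Where the counting could not place a read on one copy, the level of a gene with much shared sequence is uncertain, and this holds for Rplp1 (66.9% shared), Rpl13 (83.3%), Rps3a1 (76.1%) and Rpl19 (66.9%) among others. Rpl5, Rpl13a, Rpsa, Rps25 and Rplp0 shared 0% by the transcript chosen but up to 100%, 100%, 74.1%, 79.7% and 76.9% by another one. The same 2 values were 6.37% and 80.1% for Rplp2 and 7.17% and 38.2% for Rpl23, while Rpl27a shared 0% by any. The low level of Rplp2 beside the other stalk genes is therefore uncertain too. Small nucleolar RNA genes lie inside 16 of the 43 genes (34 in all, 5 of them in Rpl4), and 11 of the 43 overlap a gene on the opposite strand.

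The pair Rpl22 and Rpl22l1 was the only one of 7 listed paralogue pairs with both members in the table. Rpl22, an RNA-binding protein of the large subunit, had 7.09, 7.17 and 7.39 log2 CPM (lowest, median and highest) in control and 7.15, 7.30 and 7.37 in thymol. Its paralogue Rpl22l1 had 4.83, 5.13 and 5.62 in control and 4.89, 5.20 and 5.46 in thymol, so Rpl22 was measured above Rpl22l1 in every mouse. By the shared words described above, Rpl22 shared 23.9% and Rpl22l1 63.3% with other genes, so the level of Rpl22l1 in particular is uncertain. Across the 25 mice, with group means removed, the levels of the pair were not detectably related (Pearson r = 0.14, permutation p = 0.509, and Spearman rho = -0.09, permutation p = 0.672, both two-sided with 100000 resamples). Without the 2 mice farthest from the median Rpl22, r was -0.15. One pair was tested, so the adjusted values are the same as the raw ones.

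The spread between mice was small for most of the family. The SD between mice within groups had a median of 0.198 log2 against 0.275 over all genes, and 28 of the 43 genes lay below the median SD of genes at the same level. Higher genes varied less (Spearman rho between level and SD of -0.78 across the 43 genes). Of the 43 genes, 39 had an SD over 1.5 times that expected from the counting of reads alone. This is not particular to the family, since the median gene of the table also exceeded its counting SD. The median SD was 0.416 against 0.235 from counting at 2 to 3 log2 CPM, and 0.158 against 0.041 at 7 to 8. Rpl22 was the steadiest, with an SD of 0.084, followed by Rpl3l with 0.094.

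**Figure D2:**
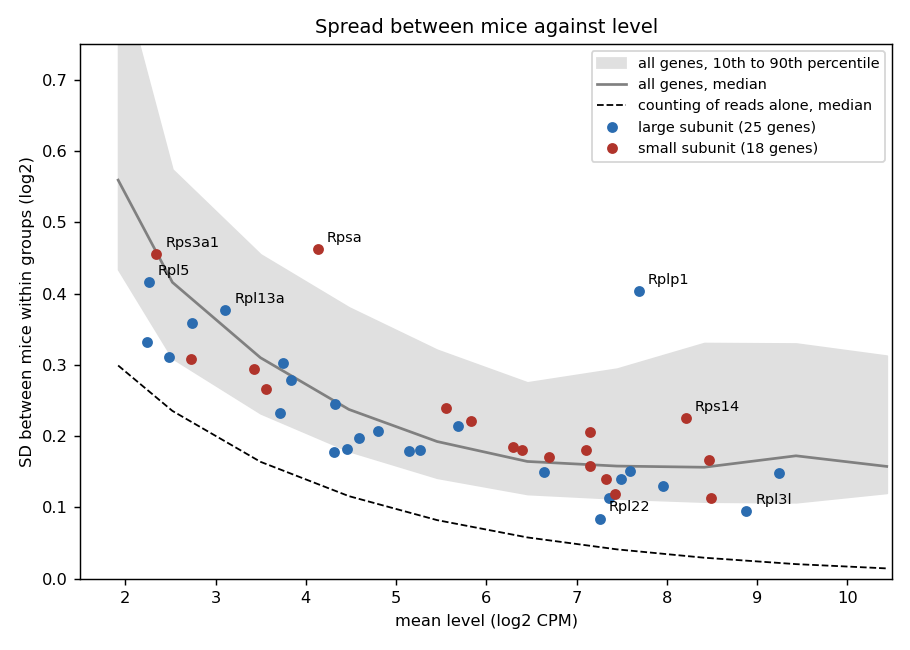
SD between mice within groups (log2) against mean level (log2 CPM) for the 43 ribosomal protein genes, with the 10th to 90th percentile and the median of all genes at each level and the median SD from counting alone (bins of 1 log2 unit with at least 20 genes). Rplp1 and Rpsa lie above the band of all genes, at SDs of 0.404 and 0.462, and 28 of the 43 genes have an SD under the median of genes at their level.

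The 5 genes with the widest spread were Rpsa, Rps3a1, Rpl5, Rplp1 and Rpl13a. Rpsa, the small-subunit protein also known as a laminin receptor precursor, had an SD of 0.462, where the median gene at its level had 0.237. Its levels were 3.03, 4.10 and 4.60 log2 CPM (lowest, median and highest) in control and 3.54, 4.44 and 4.75 in thymol, a wide scatter in both groups with the lowest value in Control 14. Rps3a1 (SD 0.455), Rpl5 (0.416) and Rpl13a (0.377) lie among the low genes, where the median gene has an SD of 0.416, 0.416 and 0.310 respectively. The SD of Rpl5 rested in part on Control 18, its lowest mouse at 0.92 log2 CPM, and was 0.319 without it.

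Rplp1 differed from the other 4 in being a high gene, with a median of 1539 reads per mouse. Its SD of 0.404 was 10.6 times that from counting and compares with 0.158 for the median gene at its level. The mice fell into separate ranges of Rplp1. In 14 mice the level was between 6.92 and 7.66 log2 CPM with a median of 7.37, and in the other 11 it was between 8.00 and 8.19 with a median of 8.10, a 1.67-fold difference between the medians. Each range held mice of both groups, with 6 control and 8 thymol mice in the lower and 5 control and 6 thymol mice in the upper. The upper range was the tighter one, with an SD of 0.061 against 0.187. Relative to its SD, a gap as wide with at least 5 mice on each side was present in 37 genes of the table (0.419%), Rplp1 included. These ranges were defined from the data after the values were seen and are no groups of the study, and no test was made between them. The 66.9% of words that Rplp1 shares at its 3′ end lie in 5 other genes, of which 4 are pseudogenes, and their part in the 2 ranges was not tested.

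Rplp1 lies on chromosome 9 (61913284 to 61914542, minus strand, GRCm38), and 13 genes of the table start or end within 2 Mb of it. One of them, Cln6, which encodes a membrane protein of the endoplasmic reticulum, was the gene of 8826 whose level across mice ran most strongly against that of Rplp1. Cln6 lies at 62838785 to 62852006 on the same chromosome. In the mice of the upper Rplp1 range Cln6 was between 3.25 and 3.66 log2 CPM, and in those of the lower range between 3.49 and 4.27. Within the ranges the relation was weak, with r = -0.18 over the 11 mice of the upper and -0.15 over the 14 mice of the lower. Map2k5, another gene of this stretch, was the sixth of 8826 in the same order (r = -0.35 and -0.60 within the ranges), while the remaining 11 neighbours were placed between 956 and 8380. Both genes were chosen after their values were seen.

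**Figure D3:**
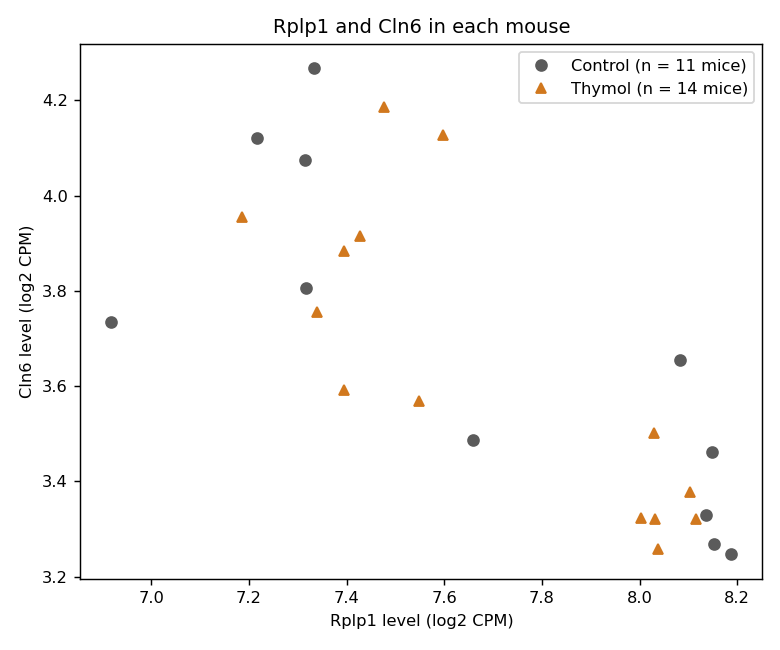
Level of Cln6 against that of Rplp1 in each mouse, both in log2 CPM, with 11 control mice as grey circles and 14 thymol mice as orange triangles. The mice lie in separate ranges of Rplp1, from 6.92 to 7.66 and from 8.00 to 8.19, and the mice of the upper range hold Cln6 between 3.25 and 3.66.

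Ribosomal protein genes varied together from mouse to mouse, above all those with many reads. After removal of group means, the median Pearson r over their 903 pairs was 0.176, with 220 pairs below 0, against -0.001 over all pairs of genes and 0.141 over the 73 genes of mitochondrial ribosomal proteins. The 20 genes with a median of at least 500 reads had a median r of 0.451 among themselves, and the 23 genes below this had 0.081. Other genes with at least 500 reads were not set beside them, so the part of read number in the 0.451 was not tested. The first principal component took 28% of the variance of the family, where it took 10.0% over all genes and 17.9% over the mitochondrial ribosomal proteins. Such a share also depends on the number of genes (43, 8829 and 73), so these percentages are not directly comparable. Genes measured in the same library share its depth and its scaling, so these values are descriptions. Without TMM scaling factors the median r was 0.246.

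**Figure D4:**
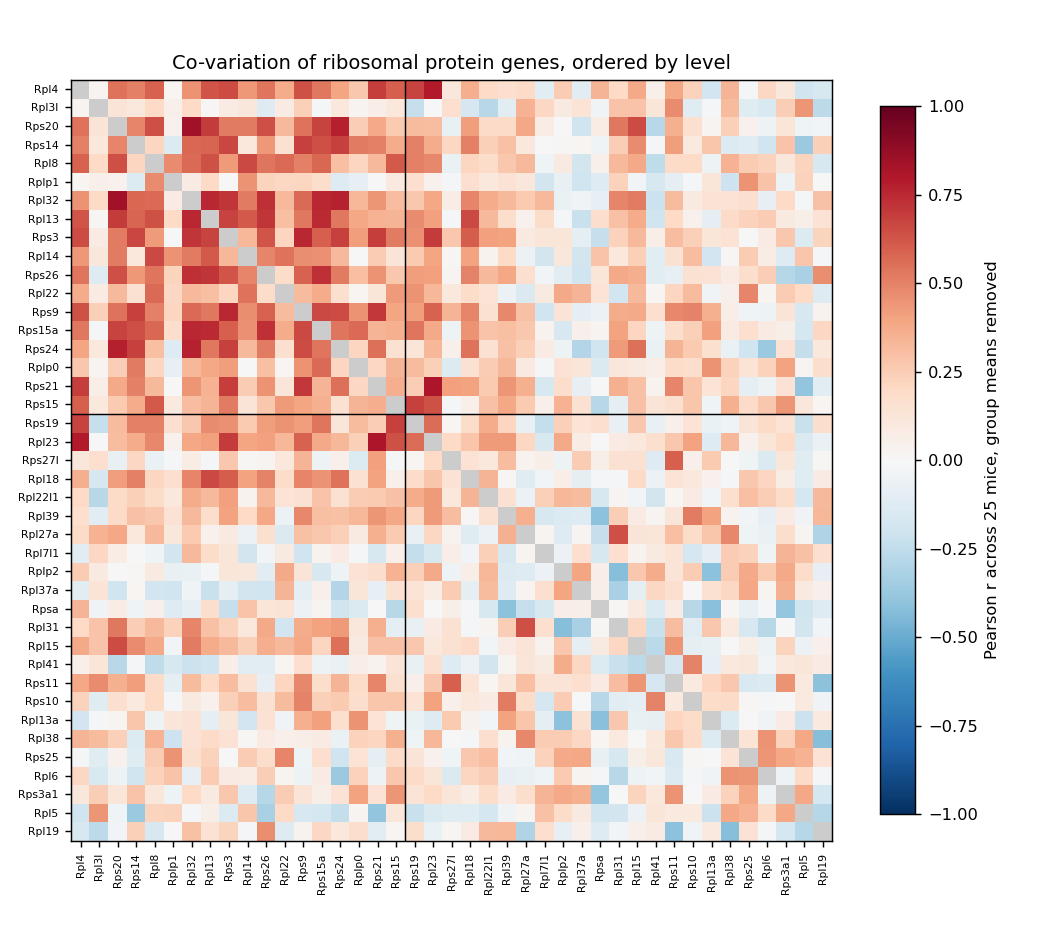
Pearson r across the 25 mice, with group means removed, for every pair of 41 of the ribosomal protein genes, ordered from the highest level to the lowest. Black lines part the 18 genes drawn that had at least 500 reads in the median mouse from the 23 below. Pairs inside the upper block are mostly positive. The rows of Rpl3l and Rplp1 are mostly pale there, though Rplp1 reaches 0.47 with Rpl8 and 0.45 with Rpl14.

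Among the genes that followed the mean of the others closely were Rps9 (r = 0.79), Rps3 (0.78), which lies at the messenger RNA entry, and Rpl32 (0.77). Rpsa (r = -0.10), Rpl5 (-0.01), Rpl41 (-0.003) and Rpl19 (0.04) followed it least. Among single pairs, chosen after their values were seen, the highest r was that of Rps20 and Rpl32 (0.84), followed by Rps21 and Rpl23 (0.81), both pairs across the subunits, and by Rpl4 and Rpl23 of the large subunit (0.79). The lowest of the 903 pairs was Rplp2 and Rpl31 at -0.43. High levels alone did not give a close relation, since Rpl3l had r = 0.14 and Rplp1 r = 0.14 with the mean of the others. Outside the family, the 5 genes most like its mean across the 25 mice were Fbxw11 (r = 0.75), Poglut1 (0.74), Rack1 (0.73), Fkbp7 (0.72) and Bclaf1 (0.71), and 115 of 8784 genes had r over 0.5. Rack1, a scaffold protein bound to the 40S subunit, stood at 7.92 log2 CPM with an SD of 0.129.

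Averaged over the family, with each gene set to 0 at its mean over the mice, the lowest mouse was Control 1 at -0.20 and the highest was Thymol 3 at 0.18 log2. The 11 control mice had a mean of -0.02 (SD 0.096) and the 14 thymol mice a mean of 0.02 (SD 0.083), a difference within the spread of either group. For comparison with other measures, the family was averaged anew, with group means removed and each gene scaled to the same spread. Several measures were set beside this scaled average across mice, as descriptions with no test. The summed level of 5 of 7 erythroid markers (the globin genes Hba-a1, Hba-a2, Hbb-bs and Hbb-bt, and Alas2) had r = 0.58 with it (rho 0.54, and r = 0.45 without the 2 mice farthest from the median of the sum). This sum was between 8.13 and 9.60 log2 CPM in control and between 8.01 and 9.36 in thymol. Its part in the co-variation was not tested. Markers of leukocytes (r = 0.06, 15 of 20 in the table), adipocytes (0.02, 13 of 15), fibroblasts (0.15, 15 of 15) and endothelium (-0.16, 15 of 15) were less related to it. So were slow fibres (-0.01, 11 of 11), fast fibres (0.16, 15 of 15), nerve (0.12, 6 of 10) and the satellite-cell list (0.002, 5 of 10). Of that last list, Pax7, Myf5, Vcam1, Calcr and Chrdl2 were not in the table. Its value rests on Myod1, Cdh15, Des, Sdc4 and Itga7, and does not describe satellite cells alone. Without the 2 farthest mice, r for fibroblasts was -0.20, for endothelium -0.25 and for nerve 0.29. For the reads of the library on the genes of the table r was -0.24 (-0.0002 without the 2 farthest mice). The r was 0.27 (0.09) for the library number and -0.12 (-0.09) for the genes of the mitochondrial genome. Ribosome-associated genes (9 in the table) had r = 0.49 (0.34 without the 2 farthest mice), ribosome biogenesis genes (56) 0.46 (0.31), initiation genes (39) 0.23 (0.10), elongation genes (9) 0.11 (0.09) and surveillance genes (19) 0.004 (-0.24).

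The study treated the mice with thymol to ask how it acts on ageing muscle, and the ribosomal protein genes differed little between the groups. None of the 43 genes passed an adjusted p of 0.05 (limma, Benjamini-Hochberg over 8829 genes, adjusted p of 0.9999 for each), and no gene of the table did, the smallest adjusted p being 0.741. At an unadjusted p under 0.05, 3 of 43 genes (6.98%) were higher with thymol, where 1.83% of all genes were (162 of 8829), and 0 were lower, where 1.70% were (150 of 8829). In either direction 3.53% of all genes had such a p. Thymol minus Control was above 0 for 26 of the 43 genes and below 0 for 17, with a median log2 fold change of 0.02 against -0.001 over all genes, of which 49.6% were above 0. In the large subunit 17 genes were above 0 and 8 below (median 0.02), and in the small subunit 9 and 9 (median 0.005).

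**Figure D5:**
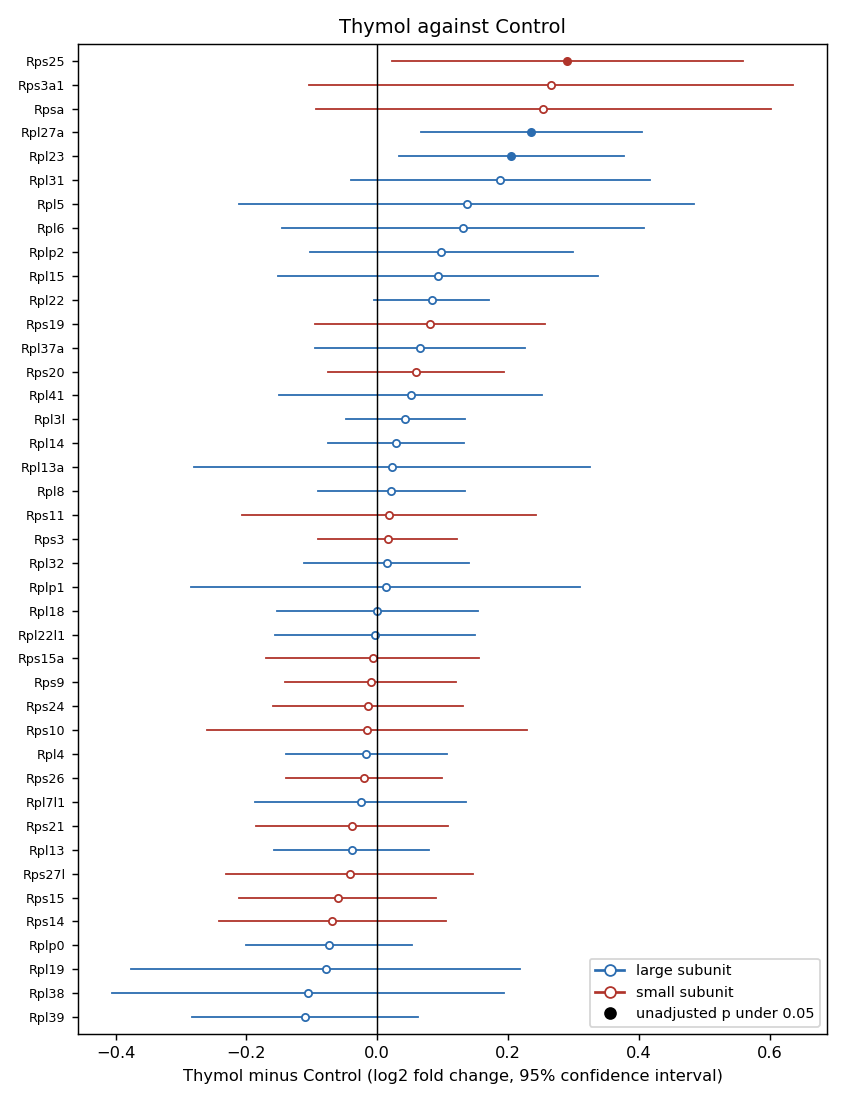
Thymol minus Control as log2 fold change for 41 of the ribosomal protein genes, with 95% confidence intervals from limma; filled points have an unadjusted p under 0.05. The changes run from -0.11 (Rpl39) to 0.29 (Rps25), and the 3 filled points, Rps25, Rpl27a and Rpl23, lie above 0.

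The genes with the smallest unadjusted p were Rpl27a, Rpl23 and Rps25. Rpl27a, a large-subunit protein, had 4.15, 4.51 and 4.73 log2 CPM (lowest, median and highest) in control and 4.35, 4.66 and 5.16 in thymol. The groups overlapped, and the log2 fold change was 0.24 with an SE of 0.083 (unadjusted p = 0.00793, limma). Rpl23, which lies at the face between the subunits, had 5.08, 5.58 and 6.12 in control and 5.49, 5.85 and 5.98 in thymol, with the control mice at both ends of the range. Its log2 fold change was 0.20 with an SE of 0.084 (p = 0.0212, limma), and 0.16 without Control 31 (p = 0.0571). Of the 14 thymol mice, 12 lay above the control median for Rpl27a and 12 for Rpl23. Rps25, a small-subunit protein used by some internal ribosome entry sites, had 1.74, 2.54 and 3.22 in control and 2.59, 2.87 and 3.24 in thymol. All 14 thymol mice lay above the control median, and the log2 fold change was 0.29 with an SE of 0.132 (p = 0.0349, limma). Rps25 rested on a median of 50 reads and overlaps Ccdc84 and Trappc4 on the other strand, and without Control 18 its log2 fold change was 0.21 (p = 0.0916). Its p was also above 0.05 without Control 1, Control 15, Thymol 22 or Thymol 28, each taken alone (0.0502 at the lowest), and by voom on the recovered reads (p = 0.0553). On the log2(CPM + 5) scale its log2 fold change was 0.15 (p = 0.0431). The fourth gene in this order was Rpl22, at a log2 fold change of 0.08 (p = 0.0625).

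On the other side, the smallest p belonged to Rpl39, a short protein of the exit tunnel, with 4.42, 4.91 and 5.19 log2 CPM in control and 4.43, 4.77 and 5.16 in thymol. Of the thymol mice, 1 of 14 lay above the control median, and the log2 fold change was -0.11 (95% interval -0.28 to 0.06, p = 0.202, limma). Rplp0 (-0.07, p = 0.246), Rps15 (-0.06, p = 0.419) and Rps14 (-0.07, p = 0.426) came next. For Rps14 the highest mouse was Control 18 at 8.90 log2 CPM, and without it the log2 fold change was -0.004. Among the stalk and the other fixed genes, Rplp1 had a log2 fold change of 0.01 (95% interval -0.28 to 0.31), Rplp2 of 0.10 (-0.10 to 0.30) and Rpsa of 0.25 (-0.09 to 0.60). The wide intervals of Rplp1 and Rpsa go with their spread between mice. For 40 of the 43 genes the 95% interval lay within 0.5 log2 of 0 on both sides, so that larger changes were outside what the fit allowed for them, while the intervals of Rps25, Rps3a1 and Rpsa reached beyond it.

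The other genes of translation also showed few differences. Of 143 genes on lists of elongation, initiation, ribosome-associated factors, ribosome biogenesis and surveillance, 132 were in the table, and none passed an adjusted p of 0.05 (limma). At an unadjusted p under 0.05, 3 of 132 were higher with thymol, beside 1.83% of all genes, and 2 were lower, beside 1.70%. Taf1b, a subunit of the factor that directs RNA polymerase I to ribosomal DNA, had 0.97, 1.74 and 2.73 log2 CPM in control and 2.05, 2.32 and 2.74 in thymol. All 14 thymol mice lay above the control median, and the log2 fold change was 0.58 (SE 0.163, p = 0.00117, adjusted p = 0.9999, limma), and 0.24 on the log2(CPM + 5) scale (p = 0.00166). Edf1, which binds collided ribosomes, was at 0.11 (p = 0.0246), higher than the control median in 11 of 14 thymol mice, and without Control 23 its p was 0.0568. The third, Pes1, a ribosome biogenesis factor named here after its values were seen, was at 0.23 (SE 0.089, p = 0.0128) and above the control median in 13 of 14 thymol mice. Among genes that were lower, Larp4, an RNA-binding protein, had a log2 fold change of -0.18 (p = 0.0304), and its p was above 0.05 (0.0501 to 0.0584) without Control 14, Control 18, Control 31, Thymol 20 or Thymol 34, each taken alone. Eif4ebp1, the repressor of cap-dependent initiation, had a log2 fold change of -0.23 (p = 0.0475). Its p was above 0.05 in 13 of the 25 fits with a mouse left out, and the log2 fold change was -0.14 without Control 19 (p = 0.134). Taf1b, Larp4 and Pes1 overlap a gene on the other strand, and reads of the partners cannot be told apart without a stated strand setting. In the elongation list (9 of 10 genes in the table), the smallest p in each direction belonged to Eef1d (0.06, p = 0.305) and Tpt1 (-0.16, p = 0.278). The median log2 fold change over the 132 genes was 0.004.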

How the data were processed

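The deposited table held log2 CPM (reads scaled to a common library size) of 8829 genes in 25 libraries, one per mouse. STAR 2.5.3 (mapping to GRCm38) and HTSeq 0.6.1 (counting) were run by the authors, who scaled libraries with TMM and state a filter of 30 reads in at least 6 samples. All 8829 genes meet it, but the number of genes it is said to have left is not that of the table. Whether counting used strand was not given in the sources used here. The values showed that about 2 reads had been added before the log2, with 0 reads at -1.90, and reads were recovered from their steps.

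Groups follow the labels. Thymol was compared with Control over all genes by limma-trend (limma 3.58.1, R 4.3.3), two-sided, on the deposited log2 values, and p was adjusted by Benjamini-Hochberg. The limma p-values judge a difference between groups against the spread between these mice. Reads carry no molecular identifiers here, so counting SDs cover counting error only. Annotation came from GENCODE M21 (GRCm38) and start sequences from RefSeq (GRCm38.p6). Python used numpy 2.4.6, pandas 2.3.3, scipy 1.17.1 and matplotlib 3.10.9. The limma procedure was run on simulated data. There the genes were drawn independently, and the changes set were larger than those of the ribosomal protein genes here.

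The genes and lists were chosen with earlier results of these data known. Named genes were the 5 highest, 5 lowest and 5 widest in spread, the 4 smallest p in each direction, measured paralogue pairs, the stalk genes and Rpsa, the 5 non-members most like the family, and the smallest p of each translation list, and not all of them are reported here. Alternatives were quantile normalization, median centring, no TMM, log2(CPM + 5), the 75% of genes with the highest mean, voom, sample weights, no trend, robust moderation, library number as covariate, the label's first number as a block, and each mouse left out in turn.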

Additional observations from a re-analysis of the deposited data

How the results depend on the processing

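Under 11 alternatives and with each of the 25 mice left out in turn, no ribosomal protein gene passed an adjusted p of 0.05 (limma). The number with an unadjusted p under 0.05 was 2 to 4 with a mouse left out and 1 to 4 otherwise, all higher with thymol, and Rpl27a was among them in 25 of 25 and in 10 of 11 of these fits. What the first number of the labels stands for is not stated. Mice of different groups that share it had a mean correlation of -0.002 over 9 pairs (-0.179 to 0.104). This does not settle whether the number marks a block. With that number as a replicate block, a mouse whose number no other mouse shares adds nothing to the comparison. That fit therefore rests on fewer mice than the main one. In it, 1 ribosomal protein gene was higher (Rpl6), with p = 0.0781 for Rpl27a, 0.06 for Rpl23 and 0.165 for Rps25 (limma). The translation lists had 1 gene higher and 0 lower in it (Taf1b 0.40, p = 0.101, limma). In the translation lists, 1 gene was lower instead of 2 with quantile normalization, without TMM factors, by voom, with sample weights and without the trend, and with a mouse left out the counts were 0 to 3 lower and 3 to 4 higher. The median log2 fold change over the ribosomal protein genes lay between 0.016 and 0.027 under the alternatives and between -0.004 (without Control 1) and 0.041 (without Thymol 7) with a mouse left out. The median r among them was 0.246 without TMM factors and 0.147 to 0.215 with a mouse left out. The r of Rpl22 and Rpl22l1 was -0.15 without the 2 farthest mice, -0.14 (without Control 19) to 0.20 with a mouse left out and 0.37 (permutation p = 0.0682) without TMM factors. The cause of these shifts was not tested. Depth limits the lowest genes, at 34 to 50 reads per mouse.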
